A study of Mus musculus with 8 samples.

Results

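The ADAM genes of the mouse were followed through 8 samples of epididymal tissue. Members were genes whose symbol is Adam, a number and an optional a or b, with the related Adamts genes left out, and the brightest probe stood for each gene. The scanner files used here carry no gene name, so the symbol pattern was applied to the platform annotation. It found 31 ADAM genes on 53 probes, of 19532 named genes on the array. Of these, 28 passed the filter on dim probes, which kept 15444 genes in all. By textbook role, 18 members are genes of sperm and testis (17 passed), 2 are genes of the epididymis (2 passed), 8 are proteases of somatic tissues (7 passed) and 3 are neural (2 passed).

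ADAM proteins span the cell membrane and carry a metalloprotease-like and a disintegrin-like domain. Some are active sheddases that cut the outer part of other membrane proteins free, while others have lost the catalytic site and serve in adhesion. In rodents a large branch of the family is made by male germ cells and takes part in sperm maturation, migration through the oviduct and binding to the egg.

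RNA came from CFT Swiss albino mice, 5 weeks old, given intraperitoneal injections for 8 days of saline, obestatin (a peptide cut from the ghrelin precursor), an N-terminal peptide of obestatin, or Nt8U, an analog of that fragment. All mice were caged singly, accustomed to saline injections first and fed at night, per the labels. The labels conflict on the dose (80 nmol/kg or 80 ng/kg) and on the mice per group (3 or 6), and they call the source fat pad in one field and epididymal tissue in others. Each group holds 2 samples, both on 1 array: replicate 1 in Cy3 and replicate 2 in Cy5, numbered by accession order. Whether a sample is 1 mouse or a pool is not given, so the p-values speak only of the spread of these samples, and that spread may be technical.

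The samples differed in the signal of cell type markers. Across samples, 25035 to 30697 of 41174 probes were well above background, and median signals lay between 73 and 231.5 intensity units against backgrounds of 22 to 31. Defining adipocyte markers were present in every sample (12 of 12 measured well above background), and so were 18 or 19 of 19 markers of testis germ cells. The summed median signal of the germ cell markers was 699914 in saline 2, 844022 in N-terminal peptide 2 and 635048 in Nt8U 2. It was 245954 and 217978 in obestatin 1 and 2, and 14245 to 22520 in the other 3 samples. Summed epididymis markers (15 genes) ran from 1068 in Nt8U 1 to 655704 in saline 1. In Nt8U 1 only 3 of the 15 were well above background, against 13 to 15 in each other sample. Spots were saturated for 6, 9 and 6 of the 19 germ cell markers in saline 2, N-terminal peptide 2 and Nt8U 2 and for 7 epididymis markers in saline 1, so those sums are lower limits. Markers of germ cells and of epididymis were thus measured beside those of fat. The germ cell sums were highest in 3 samples, and those of the obestatin samples lay between these and the other 3. In such bulk RNA, fewer cells of a type and less RNA per cell cannot be told apart.

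Promoter windows of 15 of the 31 genes (17 windows of 300 bases, from 250 before to 50 after the start, RefSeq, GRCm38.p6) were grouped by role, as a description. The epididymal members had no window. The 8 windows of sperm and testis members had a median G+C content of 38.2% (35.3 to 51.0) and held 0 to 4 CG steps, with a median of 1. The 7 windows of somatic proteases, 3 of them of Adam19, had a median of 60.3% (49.3 to 73.3) and 5 to 32 CG steps, with a median of 11. The G+C ranges of sperm and somatic windows thus overlapped, while their CG counts did not. Both neural windows, Adam22 and Adam23, had 66.3% and 70.0%, with 19 and 31 CG steps. The median over 32851 windows was 52.7% and 7. The bases before the start are shown for 2 sperm genes and 2 others, so that the scarcity or density of CG can be seen. Each CG is in capitals, 5′ to 3′ on the gene's strand.
Adam1a (fertilin alpha, sperm; chr5:121521696-121521945, minus strand): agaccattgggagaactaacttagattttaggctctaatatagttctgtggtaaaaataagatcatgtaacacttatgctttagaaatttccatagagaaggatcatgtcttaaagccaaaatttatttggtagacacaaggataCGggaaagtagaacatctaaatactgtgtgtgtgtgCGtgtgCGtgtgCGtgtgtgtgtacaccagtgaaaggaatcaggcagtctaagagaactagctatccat
Adam6a (sperm; chr12:113543658-113543907, plus strand): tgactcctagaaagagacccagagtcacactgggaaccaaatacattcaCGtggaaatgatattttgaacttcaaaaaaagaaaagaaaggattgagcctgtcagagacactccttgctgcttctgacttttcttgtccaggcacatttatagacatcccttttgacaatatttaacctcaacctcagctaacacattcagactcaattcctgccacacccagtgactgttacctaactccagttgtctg
Adam15 (somatic; chr3:89350029-89350278, minus strand): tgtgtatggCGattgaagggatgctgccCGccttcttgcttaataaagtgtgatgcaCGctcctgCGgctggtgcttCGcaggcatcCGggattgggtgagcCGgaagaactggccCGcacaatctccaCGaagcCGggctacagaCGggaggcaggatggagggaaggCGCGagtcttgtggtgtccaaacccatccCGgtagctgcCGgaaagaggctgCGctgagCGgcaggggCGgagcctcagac
Adam23 (neural; chr1:63445641-63445890, plus strand): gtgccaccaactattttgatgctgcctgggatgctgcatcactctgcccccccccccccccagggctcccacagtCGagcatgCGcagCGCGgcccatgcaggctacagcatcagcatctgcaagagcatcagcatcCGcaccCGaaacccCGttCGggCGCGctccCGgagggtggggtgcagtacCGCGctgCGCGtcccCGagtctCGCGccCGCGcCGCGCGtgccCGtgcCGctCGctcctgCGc

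These 4 stretches hold 4, 1, 18 and 27 CG steps, in the order printed. Searched on both strands, the GC box GGGCGG was in 0 of 8 sperm windows, 5 of 7 somatic windows and 0 of 2 neural windows, against 35.7% of all windows. The TATA box letters TATAAA were in 3 of 8 sperm windows (Adam29, Adam6a and Adam6b) and in 0 of 7 somatic windows, against 13.6% of all. The full cAMP response element TGACGTCA was in 0 of 17 windows, against 1.79% of all. The neighbouring copies Adam6a and Adam6b shared an unbroken run of 199 identical bases, and Adam20 and Adam25 one of 88, so these promoters are not independent examples.

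Sperm and testis members differed widely between the samples of saline, of the N-terminal peptide and of Nt8U, and less between those of obestatin. All levels below are normalized log2 intensities of 1 probe and are compared only between samples. The 17 tested members were over 4-fold higher in replicate 2 than in replicate 1 of saline, of the N-terminal peptide and of Nt8U, where 19.9%, 20.1% and 15.8% of all 15444 genes were. In obestatin 0 of 17 were over 4-fold higher in replicate 2 (0.0324% of all genes), and 17 of 17 were lower there. The median difference, replicate 2 minus replicate 1 on the log2 scale, was 5.51 for saline (4.18 to 7.48), -1.09 under obestatin (-1.80 to -0.30), 5.53 under N-terminal peptide (4.28 to 7.24) and 4.34 under Nt8U (2.82 to 7.19). With 1 sample on each side these differences have no test, and dye and replicate cannot be told apart. Another 5 kept probes of the same genes gave the same pattern: 22 of 22 probes were over 4-fold higher in replicate 2 of those 3 groups and lower in replicate 2 of obestatin.

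**Figure D1:**
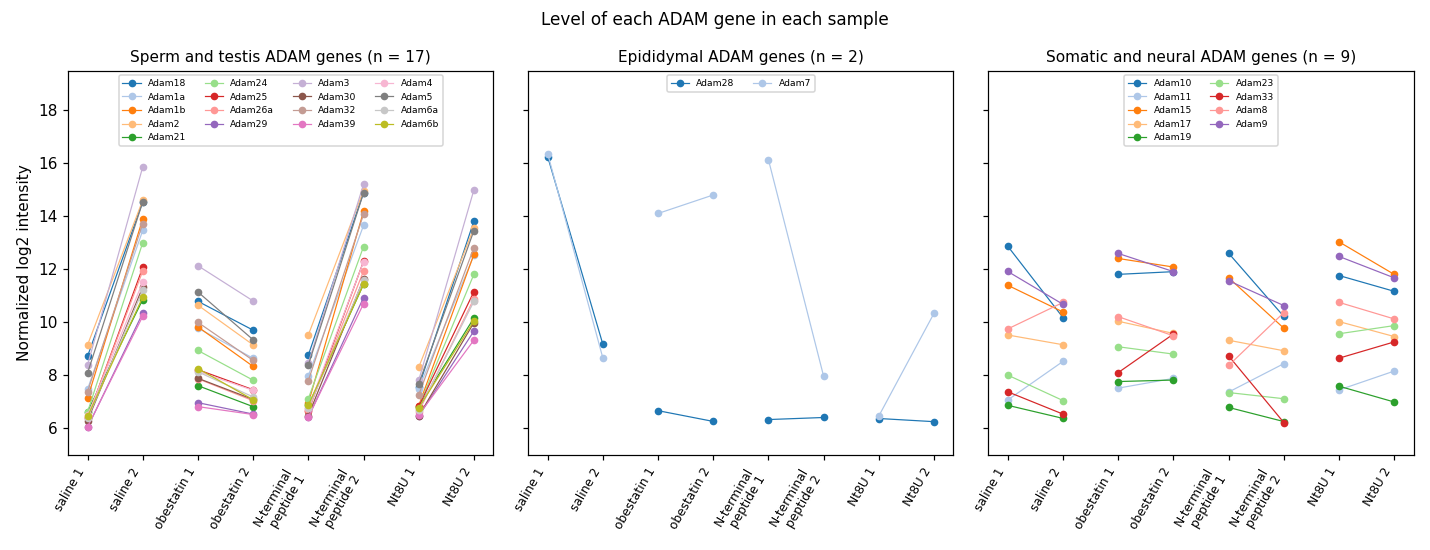
Normalized log2 intensity (vertical axis) of each tested ADAM gene in each of the 8 samples, with a line joining the replicates of a group; panels hold the 17 sperm and testis genes, the 2 epididymal genes and the 9 somatic and neural genes. In the first panel replicate 2 is the higher sample for each gene in saline, the N-terminal peptide and Nt8U, and the lower one in obestatin.

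Fertilin is a pair of sperm surface proteins made from Adam1a or Adam1b (alpha) and Adam2 (beta). Adam2 had 9.15 and 14.62 in saline 1 and 2, 10.65 and 9.15 in the obestatin samples, 9.53 and 14.98 in those of N-terminal peptide, and 8.31 and 13.57 in those of Nt8U. Adam1b, whose product reaches the sperm surface, had 7.13 and 13.91 under saline, 9.83 and 8.34 under obestatin, 6.96 and 14.19 under N-terminal peptide and 6.86 and 12.57 under Nt8U. Adam1a, whose product stays in the endoplasmic reticulum of germ cells, had 7.48 and 13.47 under saline, 9.78 and 8.64 under obestatin, 7.99 and 13.66 under N-terminal peptide and 7.50 and 12.54 under Nt8U. For Adam1a and Adam1b both obestatin samples lay between the replicates of each other group, while for Adam2 obestatin 2 lay level with saline 1 and below N-terminal peptide 1. Adam1a and Adam1b are close relatives, and whether their probes tell them apart was not tested.

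Adam3 (cyritestin) is needed by mouse sperm to pass from uterus to oviduct. It had 8.39 and 15.87 under saline, 12.14 and 10.81 under obestatin, 8.47 and 15.22 under N-terminal peptide and 7.82 and 15.01 under Nt8U. Its spot was saturated in saline 2 and N-terminal peptide 2, so those values are lower limits. Adam5, a sperm ADAM of the same chromosomal cluster, had 8.09 and 14.55 under saline, 11.15 and 9.34 under obestatin, 8.39 and 14.89 under N-terminal peptide and 7.68 and 13.47 under Nt8U. Adam18 had 8.72 and 14.55 under saline, 10.80 and 9.71 under obestatin, 8.77 and 14.90 under N-terminal peptide and 7.57 and 13.83 under Nt8U. Adam32 had 7.38 and 13.73 under saline, 10.00 and 8.57 under obestatin, 7.80 and 14.08 under N-terminal peptide and 7.27 and 12.83 under Nt8U. In these 4 genes obestatin 1 and 2 again lay between the low and the high samples.

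The testases are testis-specific ADAM proteases of rodents. Adam24 (testase 1), which in mice limits the entry of further sperm into an egg, had 6.62 and 13.01 under saline, 8.94 and 7.82 under obestatin, 7.12 and 12.86 under N-terminal peptide and 6.82 and 11.82 under Nt8U. Adam25, Adam26a and Adam39 belong to the same branch. Adam25 had 6.39 and 12.08 under saline, 8.21 and 7.46 under obestatin, 6.65 and 12.31 under N-terminal peptide and 6.83 and 11.16 under Nt8U. Adam26a reached 11.94, 11.94 and 10.90 in saline 2, N-terminal peptide 2 and Nt8U 2, and 6.43 to 7.87 in the other 5 samples. Adam39 reached 10.23, 10.70 and 9.33 in the same 3 samples, against 6.06 to 6.82. Whether the probes of these related genes tell them apart was not tested.

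The remaining sperm and testis members are Adam4, Adam6a, Adam6b, Adam21, Adam29 and Adam30. Adam4 had 11.52, 12.29 and 10.82 in the 3 samples named above and 6.49 to 8.15 in the others. Adam21 had 10.86, 11.44 and 10.17, against 6.64 to 7.61. Adam29 had 10.35, 10.94 and 9.68, against 6.03 to 6.97, and Adam30 had 11.33, 11.64 and 9.99, against 6.29 to 7.89. The near-identical copies Adam6a and Adam6b had 11.21 and 10.96 in saline 2, 11.61 and 11.45 in N-terminal peptide 2, and 10.80 and 10.06 in Nt8U 2, and a probe may not tell one from the other. Across the 17 members, 8 were not well above background in at least 1 replicate 1 sample, namely Adam4, Adam6a, Adam6b, Adam25, Adam26a, Adam29, Adam30 and Adam39. Their differences from those samples are set by background and may understate the true ones. Adam20 was well above background in 0 of 8 samples and was not tested.

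Germ cell markers moved with these genes between the replicates of a group, but only in part against saline. Their median difference between replicates (19 genes) was 5.00 in saline, -1.48 in obestatin, 5.05 in the N-terminal peptide and 4.63 in Nt8U. In obestatin against saline, 5 of these 19 were higher and 14 lower, while 0 of the 17 ADAM members were higher. Prm1 had 16.18 and 14.66 in obestatin, against 12.68 and 15.97 in saline, with its spot saturated in saline 2. Sertoli cell markers (6 genes) had median levels of 11.19, 11.18 and 10.49 in saline 2, N-terminal peptide 2 and Nt8U 2, against 6.95 to 9.27 elsewhere. Leydig cell markers (4 genes) had 9.16, 9.88 and 9.35 there, against 6.42 to 7.03. Among them Cyp17a1 was an exception, with 9.39 and 9.47 in obestatin and 10.01 in N-terminal peptide 1, against 9.81 in saline 2. Of the 6 Sertoli cell markers, Sox9 alone was lower in replicate 2 of saline (11.29 and 9.61) and of the N-terminal peptide (10.11 and 8.93). Under Nt8U it had 7.06 and 9.33. The part of germ, Sertoli and Leydig cells in the ADAM levels was not tested.

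**Figure D2:**
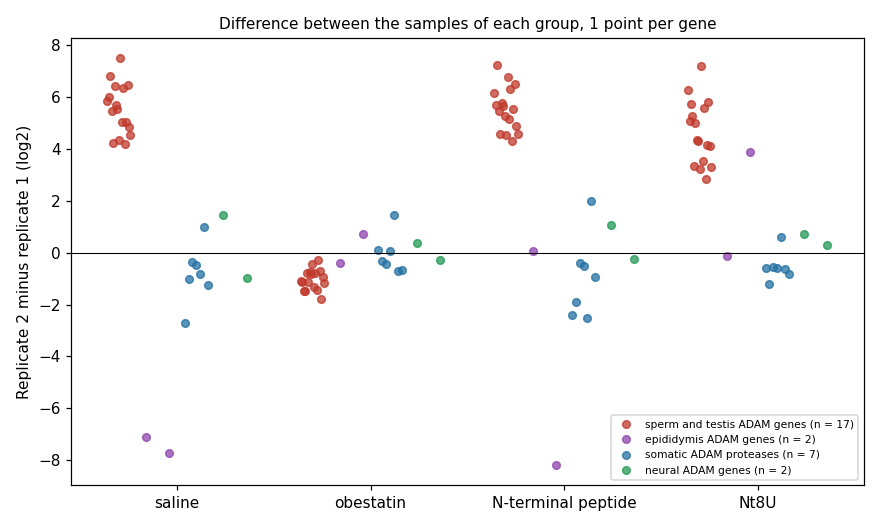
Difference between the samples of a group (replicate 2 minus replicate 1, log2, vertical axis) for each of 28 ADAM genes in each of the 4 groups (horizontal axis), coloured by role. The 17 sperm and testis genes sit between 2.82 and 7.48 in saline, the N-terminal peptide and Nt8U, above each of the 7 somatic proteases there. In obestatin they sit between -1.80 and -0.30, a range that also holds 4 of the somatic proteases.

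Partners of sperm ADAM proteins were followed as a list of 15 genes, which also holds the general sperm genes Izumo1, Spam1, Spaca1 and Zpbp. Of these, 12 were over 4-fold higher in replicate 2 of saline (19.9% of all genes), 12 in the N-terminal peptide (20.1%), 11 in Nt8U (15.8%) and 0 in obestatin (0.0324%). Clgn (calmegin), the chaperone that assembles fertilin in the mouse testis, had 9.80 and 15.78 under saline, 11.85 and 10.39 under obestatin, 10.21 and 15.24 under N-terminal peptide and 9.05 and 14.73 under Nt8U. Tex101, a germ cell surface protein needed for mature ADAM3, had 8.29 and 14.82, 10.57 and 9.02, 8.31 and 14.62, and 7.84 and 13.83 in the same order of groups. Both thus followed the sperm ADAM genes from sample to sample. The list moved apart at genes of other tissues: Rnase10, made by the epididymis, had 16.36 and 10.89 under saline, 7.56 and 6.31 under obestatin, 7.14 and 5.92 under N-terminal peptide and 6.20 and 6.35 under Nt8U.

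Neighbours on a chromosome did not always share a profile. Of the 31 members, 11 lie on chromosome 8, and Adam18, Adam3, Adam5, Adam32 and Adam9 follow one another there with 0 genes between in the GRCm38.p6 gene table. The first 4 are sperm genes, with differences between the saline replicates of 5.83, 7.48, 6.46 and 6.35. Their immediate neighbour Adam9, a broadly expressed protease, had -1.24 in saline, -0.68 in obestatin, -0.94 in the N-terminal peptide and -0.81 in Nt8U. On chromosome 14, Adam7 and Adam28 have 1 gene between them and both are epididymal, yet in the N-terminal peptide replicate 2 minus replicate 1 was -8.18 for Adam7 and 0.08 for Adam28.

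**Figure D3:**
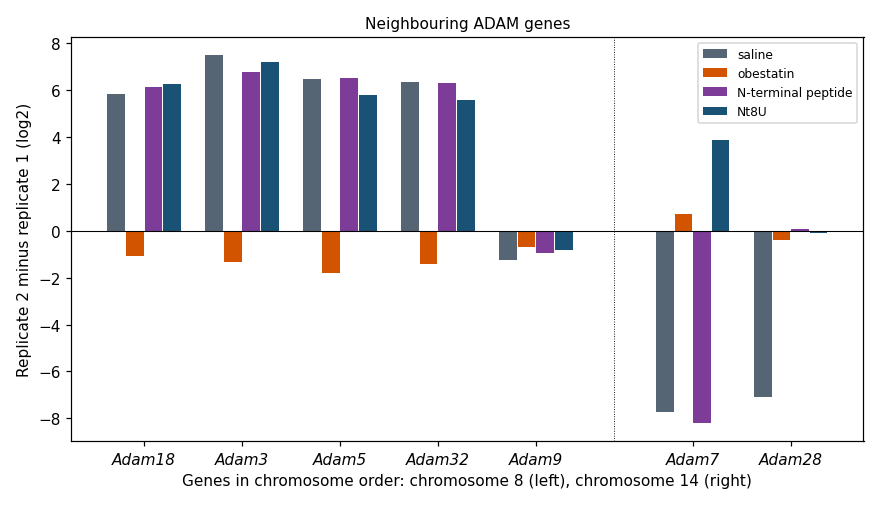
Replicate 2 minus replicate 1 (log2, vertical axis) in each group for ADAM genes in chromosome order (horizontal axis), with chromosome 8 left of the dotted line and chromosome 14 right of it. Adam18, Adam3, Adam5 and Adam32 share a profile that their neighbour Adam9 lacks, and Adam7 and Adam28 part in the N-terminal peptide and Nt8U.

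The epididymal members had the widest ranges. Adam7, an ADAM without a working catalytic site that passes from epididymal epithelium to the sperm surface, had 16.37 and 8.65 under saline, 14.11 and 14.81 under obestatin, 16.14 and 7.96 under N-terminal peptide and 6.47 and 10.35 under Nt8U. It was saturated in saline 1 and not well above background in Nt8U 1, so the difference between these Cy3 samples (-9.90, Nt8U minus saline) is at the limits of the scanner. Nt8U lay below both obestatin samples, with a fitted log2 difference of -6.05 (95% interval -15.07 to 2.97) and a limma adjusted p of 0.994. Against saline, the obestatin, N-terminal peptide and Nt8U groups overlapped it in Adam7.

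Adam28, which lies near Adam7 and is known from epididymis and lymphocytes, had 16.26 and 9.17 under saline, 6.67 and 6.26 under obestatin, 6.33 and 6.41 under N-terminal peptide and 6.37 and 6.25 under Nt8U. Both saline samples were above all 6 peptide samples. Its median signal in those 6 was 47 to 68 intensity units, and it was not well above background in N-terminal peptide 1 and Nt8U 1, so the differences below are set by the background and may understate the true ones. The fitted log2 difference from saline was -6.25 for obestatin (SE 1.98, unadjusted p = 0.0278 by limma, adjusted p = 0.546). It was -6.35 for the N-terminal peptide (limma adjusted p = 1) and -6.40 for Nt8U (limma adjusted p = 0.514), and these comparisons share the saline samples. Another 2 probes of Adam28 gave -5.38 and -5.93 for obestatin. Without saline 1 the differences were -2.78, -2.88 and -2.94, in the same order of peptides. Epididymis markers followed Adam28 in part. The median level of the 15 markers was 16.36 in saline 1, 10.89 in saline 2, 9.04 and 9.87 under obestatin, 12.65 and 7.06 under N-terminal peptide and 6.45 and 7.12 under Nt8U. Against saline, 6 of the 15 differed upward and 9 downward for obestatin, 5 and 10 for the N-terminal peptide, and 0 and 15 for Nt8U. Of that list, Lcn8, an epididymal lipocalin, had 16.45 and 10.98 in saline and 5.81 to 7.50 in the 6 peptide samples. Lcn5, another lipocalin, had 16.46 and 12.71 under saline, 15.09 and 15.15 under obestatin, 16.92 and 12.86 under N-terminal peptide and 6.41 and 8.98 under Nt8U. The part of epididymal tissue in the levels of Adam7 and Adam28 was not tested.

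Across the family, 0 of 28 ADAM genes passed the threshold (limma, Benjamini-Hochberg adjusted p of 0.05 over 15444 genes) in any of the 6 comparisons between groups, and neither did any other gene (0% called). At an unadjusted p of 0.05, 4 ADAM genes were higher and 1 lower in obestatin than in saline, where 7.37% and 1.33% of all genes were. In the N-terminal peptide 0 were higher and 1 lower (0.104% and 0.667% of all genes), and in Nt8U 3 were higher and 1 lower (6.93% and 1.22%). With 2 samples a group, an exact permutation test of 1 gene cannot go below a two-sided p of 0.333. The median fitted difference over the 28 genes against saline was -1.17 under obestatin, 0.19 under N-terminal peptide and -0.25 under Nt8U, beside 0.00, 0.02 and -0.11 over all genes.

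For the sperm and testis members the fitted median joined opposite differences within the dyes for obestatin and Nt8U, but not for the N-terminal peptide. Obestatin against saline gave a median of 1.80 within Cy3 and -4.83 within Cy5, and -1.39 in the fit, with 0 of 17 at an unadjusted p of 0.05. Nt8U against saline gave 0.19 and -0.91, and -0.46 in the fit. The N-terminal peptide against saline gave 0.30 within Cy3 and 0.35 within Cy5, and 0.35 in the fit. The group ranges overlapped for each of the 17 genes in all 3 comparisons. Without obestatin 1, the 17 sperm and testis members were called lower in obestatin than in saline (limma adjusted p of 0.05), along with 2430 of the 2724 genes called in all. That fit rests on the lone sample obestatin 2 and takes its spread from the other groups. Without obestatin 2 instead, 0 ADAM genes were called and the family median was 1.28.

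Of the somatic and neural members, 4, namely Adam9, Adam15, Adam19 and Adam23, were the ADAM genes higher at an unadjusted p of 0.05 in obestatin. Adam23 has no catalytic site and binds integrins and the secreted protein LGI1 in brain. It had 8.01 and 7.05 under saline, 9.08 and 8.80 under obestatin, 7.35 and 7.12 under N-terminal peptide and 9.57 and 9.88 under Nt8U. All 4 samples of obestatin and Nt8U were above all 4 of saline and the N-terminal peptide. The log2 difference from saline was 1.41 for obestatin (SE 0.39, unadjusted p = 0.0176 by limma, adjusted p = 0.523) and 2.20 for Nt8U (SE 0.39, unadjusted p = 0.00314 by limma, adjusted p = 0.446). For the N-terminal peptide it was -0.29 (95% interval -1.33 to 0.74). A second probe gave 1.38, 1.19 and -0.18 for obestatin, Nt8U and the N-terminal peptide.

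Adam15 (metargidin), an ADAM with an integrin-binding motif found in vessels and other tissues, had 11.40 and 10.39 under saline, 12.41 and 12.09 under obestatin, 11.69 and 9.78 under N-terminal peptide and 13.04 and 11.81 under Nt8U. Obestatin and Nt8U again lay above the other groups in each sample. Against saline its difference was 1.35 for obestatin (limma adjusted p = 0.552), 1.53 for Nt8U (limma adjusted p = 0.5) and -0.16 for the N-terminal peptide. A second probe gave 1.54, 1.64 and -0.02.

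Adam19 (meltrin beta), a sheddase of neuregulins with a role in heart development, had 6.87 and 6.38 under saline, 7.77 and 7.82 under obestatin, 6.79 and 6.26 under N-terminal peptide and 7.59 and 7.0 under Nt8U. Its difference from saline was 1.17 for obestatin (SE 0.31, unadjusted p = 0.0149 by limma, adjusted p = 0.523) and 0.67 for Nt8U (95% interval -0.15 to 1.49). Adam9 (meltrin gamma) had 11.92 and 10.68 under saline, 12.60 and 11.92 under obestatin, 11.57 and 10.64 under N-terminal peptide and 12.49 and 11.68 under Nt8U. Here the groups were not apart, since saline 1 lay level with obestatin 2 and above Nt8U 2. Its difference from saline was 0.96 for obestatin (SE 0.29, limma adjusted p = 0.537) and 0.78 for Nt8U (limma adjusted p = 0.604).

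**Figure D4:**
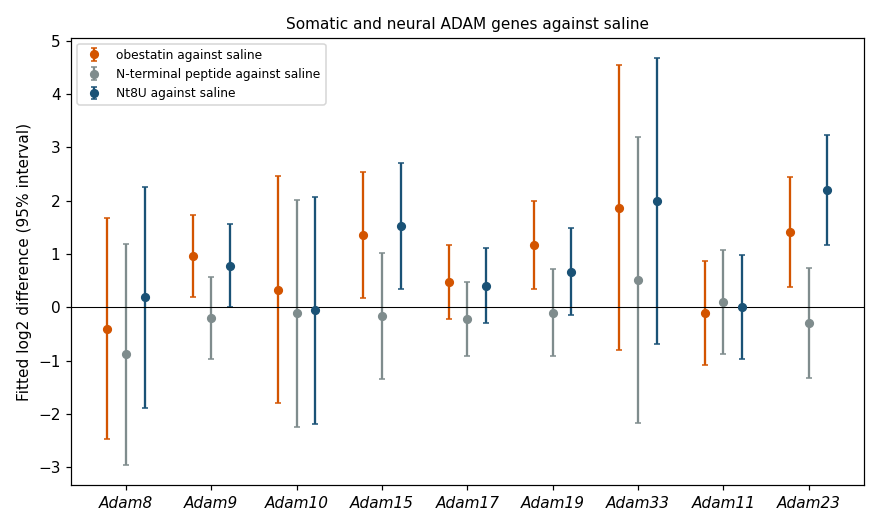
Fitted log2 difference from saline (vertical axis; bars are 95% intervals from limma) of 7 somatic and 2 neural ADAM genes for the 3 peptides (n = 2 samples a group). For Adam9, Adam15, Adam19 and Adam23 the obestatin and Nt8U points lie above 0 while the N-terminal peptide points lie between -0.29 and -0.10.

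The remaining somatic and neural members did not reach an unadjusted p of 0.05 against saline. Adam10, which releases Notch and the amyloid precursor, had 12.88 and 10.18 under saline, 11.81 and 11.92 under obestatin, 12.61 and 10.23 under N-terminal peptide and 11.77 and 11.17 under Nt8U. Its differences from saline ran from -0.11 to 0.34, with 95% intervals reaching from -2.24 to 2.47. Adam17, which releases tumour necrosis factor, had 9.52 and 9.16 under saline, 10.04 and 9.58 under obestatin, 9.33 and 8.93 under N-terminal peptide and 10.03 and 9.47 under Nt8U. Its difference was 0.47 for obestatin (95% interval -0.22 to 1.17), 0.41 for Nt8U (-0.29 to 1.11) and -0.21 for the N-terminal peptide (SE 0.27, limma adjusted p = 1). Within each dye its obestatin and Nt8U samples lay above those of saline and the N-terminal peptide. Adam8, an ADAM of leukocytes, had 9.75 and 10.75 under saline, 10.22 and 9.49 under obestatin, 8.37 and 10.37 under N-terminal peptide and 10.76 and 10.13 under Nt8U, with -0.88 for the N-terminal peptide (SE 0.79, limma adjusted p = 1). Adam33, a gene of smooth muscle and fibroblasts, had 7.38 and 6.54 under saline, 8.10 and 9.56 under obestatin, 8.74 and 6.22 under N-terminal peptide and 8.65 and 9.26 under Nt8U. On this probe its obestatin and Nt8U samples lay above both saline samples. Its 3 probes gave 0.42, 1.13 and 1.87 for obestatin against saline. For Nt8U they gave 0.15, 0.81 and 2.00 in the same order, so the size depends on the probe. On the probe with the smallest differences, Nt8U 1 (6.37) lay below saline 1 (6.43), so there these groups overlapped. Adam11, a neural member, had levels between 7.07 and 8.53, and its differences from saline lay between -0.10 and 0.11. Adam12, known from muscle and fat precursors, was well above background in Nt8U 1 alone, and Adam22, neural, in 0 of 8 samples.

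Groups did not overlap, with obestatin higher than saline, in 5 ADAM genes (Adam15, Adam17, Adam19, Adam23 and Adam33), where 26.2% of all genes were, and in 1 with obestatin lower (12.7%). For Nt8U these counts were 4 (15%) and 1 (10.6%), and for the N-terminal peptide 0 (4.24%) and 1 (4.89%). None of these shares of the 28 members is above the background. Markers of other cells moved in the same samples. Adipocyte markers (12 genes) had medians of 14.16 and 13.25 in obestatin and 15.00 and 13.43 in Nt8U, against 11.99 and 11.31 in saline and 11.93 and 8.83 in the N-terminal peptide. Macrophage markers (11 genes) had 11.36 and 10.34 in obestatin and 11.37 and 10.22 in Nt8U, against 7.80 to 9.22 in the other 4 samples. Their part in the levels of Adam9, Adam15, Adam19 and Adam23 was not tested. Without the 3 samples richest in germ cell markers and with no dye term, the difference of obestatin from saline was 0.93 for Adam23 and Adam19, 0.85 for Adam15 and 0.34 for Adam9. In the same fit that of Nt8U was 1.56 for Adam23, 1.64 for Adam15, 0.72 for Adam19 and 0.57 for Adam9. Saline and Nt8U rest there on a lone Cy3 sample each. These Nt8U values therefore repeat the Cy3 differences and are no separate evidence.

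The 3 peptides, given at the same labelled dose and time, were compared with each other in 3 pairs. Nt8U, the analog of the N-terminal fragment, was above the N-terminal peptide in both dyes for Adam23, by 2.22 in Cy3 and 2.76 in Cy5. The fitted difference was 2.49 (95% interval 1.46 to 3.52, unadjusted p = 0.00185 by limma, adjusted p = 0.181). A second Adam23 probe gave 1.37, so the size depends on the probe. Adam15 differed by 1.69 (limma adjusted p = 0.273) and Adam9 by 0.98 (limma adjusted p = 0.329). These were the 3 ADAM genes higher in Nt8U at an unadjusted p of 0.05, where 9.18% of all genes were, and 0 were lower (1.88%). Samples did not overlap in 5 ADAM genes with Nt8U higher (16.5% of all genes) and in 0 with it lower (11.3%).

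The N-terminal peptide was below obestatin in the same kind of gene. Adam23 differed by -1.71 (limma adjusted p = 0.249), Adam19 by -1.27 (limma adjusted p = 0.267), Adam9 by -1.16 (limma adjusted p = 0.273) and Adam15 by -1.52 (limma adjusted p = 0.353). These 4 were lower at an unadjusted p of 0.05, where 9.32% of all genes were, and 0 were higher (1.01%). Samples did not overlap in 5 with the N-terminal peptide lower (23.2%) and in 0 with it higher (14.7%). Nt8U and obestatin did not differ at that level in any ADAM gene (0.265% of all genes were higher and 1.04% lower in Nt8U). Samples did not overlap in 1 with Nt8U higher (10.7%) and in 3 with it lower (22.1%). The 95% interval of the difference was -0.25 to 1.82 for Adam23, -1.01 to 1.36 for Adam15 and -0.95 to 0.60 for Adam9. Each interval is of 1 probe, and group and array cannot be told apart. A second Adam23 probe had 8.47 and 8.70 under obestatin and 8.60 and 8.19 under Nt8U, so there the groups overlapped. The 3 pairs share samples with each other and with the comparisons against saline.

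Genes that act with ADAM10 and ADAM17 were followed as 2 lists. Of 18 regulators (inhibitors, activating convertases, tetraspanins and rhomboid-like partners), 5 were higher and 1 lower in obestatin than in saline at an unadjusted p of 0.05 (7.37% and 1.33% of all genes). In the N-terminal peptide 0 were higher or lower (0.104% and 0.667%), and in Nt8U 6 were higher (6.93%) and 0 lower (1.22%). Timp2, an inhibitor of metalloproteases, had 13.23 and 12.69 under saline, 13.89 and 13.63 under obestatin, 13.04 and 12.76 under N-terminal peptide and 14.64 and 14.15 under Nt8U. Its difference for Nt8U was 1.43 (SE 0.27, limma adjusted p = 0.446). Timp4, an inhibitor rich in fat, had 8.62 and 8.58 under saline, 11.18 and 10.32 under obestatin, 9.05 and 6.53 under N-terminal peptide and 12.14 and 10.47 under Nt8U, a difference of 2.15 for obestatin and 2.70 for Nt8U (limma adjusted p = 0.537 and 0.446). Tspan17, a tetraspanin that binds ADAM10, differed by 1.21 and 1.56 (limma adjusted p = 0.552 and 0.455), and the convertase Pcsk5 by 1.38 for obestatin (limma adjusted p = 0.523). For the N-terminal peptide the smallest p-values were those of Tspan15 (-1.26), Rhbdf2 (-1.04) and Timp4 (-0.81), each with a limma adjusted p of 1.

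Of 25 measured substrates, 7 were higher in obestatin than in saline at an unadjusted p of 0.05 (7.37% of all genes), 0 in the N-terminal peptide (0.104%) and 5 in Nt8U (6.93%), and 0 were lower in any of these. In the same comparisons 10, 0 and 7 of 11 macrophage markers and 3, 0 and 6 of 12 adipocyte markers were higher at that p, and their part in the levels of regulators and substrates was not tested. Csf1r, the macrophage colony-stimulating factor receptor and also a marker in the macrophage list, had 9.61 and 8.53 under saline, 11.62 and 10.46 under obestatin, 8.93 and 7.86 under N-terminal peptide and 11.55 and 10.29 under Nt8U. Its difference was 1.98 for obestatin (SE 0.27, limma adjusted p = 0.523) and 1.85 for Nt8U (limma adjusted p = 0.446). Lrp1, a scavenger receptor that ADAM10 and ADAM17 release, differed by 1.87 and 1.69 (limma adjusted p = 0.523 and 0.446). Cd44, a hyaluronan receptor, differed by 1.43 and 1.16 (limma adjusted p = 0.523 and 0.455). In the N-terminal peptide Csf1r, Cd44 and Cdh5 differed by -0.67, -0.48 and -0.85, each with a limma adjusted p of 1. The medians of the 25 substrates were 0.94, -0.09 and 0.73 under obestatin, N-terminal peptide and Nt8U, beside the medians over all genes given above.

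In the list of sperm ADAM partners and general sperm genes, the gene with the smallest p in each comparison with saline was Rnase10, an epididymal protein needed in mice for ADAM3 on sperm. It differed by -6.69, -7.10 and -7.35 for obestatin, the N-terminal peptide and Nt8U (limma adjusted p = 0.523, 1 and 0.446), and both saline samples were above all 6 peptide samples, as for Adam28. Ace, whose testis form is needed for ADAM3 on sperm, differed by -0.85, 0.64 and -1.57 (limma adjusted p = 0.617, 1 and 0.449). Its replicates were close in saline (10.95 and 11.10) and the N-terminal peptide (11.80 and 11.55), unlike those of the sperm ADAM genes. Whether its probe tells the testis form from other forms was not tested. Pcsk4, a convertase of germ cells, differed by -1.48 for obestatin, and Tpst2, a tyrosine sulphotransferase, by -1.38 under N-terminal peptide and -1.28 under Nt8U, and the groups overlapped for both. The authors' deposited table for the N-terminal peptide lists 37 probes as higher and 72 as lower, and 0 of these are ADAM probes.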

How the data were processed

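RNA of 8 samples (4 groups of 2) was hybridised to 4 Agilent 2-colour arrays, and each channel was treated as a sample. The deposited values are spot intensities from Feature Extraction 10.5.1.1, per the file headers; median signals and median backgrounds were used, with the deposited background, saturation and outlier marks. A deposited table of the authors also gives log2 values (medians -2.90 to -2.14, 75th percentile 0), made with GeneSpring GX 10 per the submitters' processing notes. Each of its columns matches the other dye than its label names (r = 1.00), so under those labels the replicates of a group would trade number and dye. Its centring is known only from its values. Arrays were tied to samples by a deposited readme. Their deposited lists for the N-terminal peptide hold log2 fold changes.

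Intensities were corrected by normexp (offset 50), loess within arrays (control spots at weight 0) and Aquantile between arrays in limma 3.58.1 (R 4.3.3). Of 41174 probes, 28244 passed the filter (both samples of some group well above background), and 78 of them, with outlier marks, were dropped. Saturation removed no spot. The platform annotation names 32664 probes with 1 symbol, 45 with several and 8465 with none; symbols were updated through Entrez numbers with a GRCm38.p6 gene table. The brightest probe stood for a gene. Group means and a dye term were fitted to all 8 samples (3 residual and 1.68 prior degrees of freedom), with empirical Bayes moderation and two-sided tests at an adjusted p of 0.05. The median SE was 0.49. The number of arrays limits the precision, and as an array carries 1 group alone, the 2 cannot be told apart. The script was tested on simulated data.

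The 31 members and all lists (175 of 181 symbols matched) were chosen with earlier results of these data known. Every member is accounted for. The difference and adjusted p are given for the 3 members with the smallest p in each comparison with saline. For the 3 such genes of each partner list at least the difference is given. Other genes were named after their values were seen. A planned comparison of protein sequences was not made. Alternatives are given at the end.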

Additional observations from a re-analysis of the deposited data

How the results depend on the processing

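In 16 alternative settings, 309 of the 336 summary values kept their call or stayed within the spread of the samples. For an ADAM median that spread was 2.27 on the log2 scale, wider than each family median against saline. Some values could not change. Dropping the loess or the dye term leaves the fitted group differences as they are, and so does leaving out a sample of a group not compared. In the authors' log2 values, read by the channel each column matches, 1 gene was called against saline for each of the 3 peptides, with 0 ADAM genes among them. Leaving out 1 sample at a time gave 0 to 2724 genes called for obestatin against saline, with 0 to 17 ADAM genes and ADAM medians of -3.93 to 1.28. For the N-terminal peptide against obestatin these were 0 to 3484, 0 to 19 and -1.08 to 4.20, and for Nt8U against obestatin 0 to 1502, 0 to 17 and -1.65 to 3.48. The upper counts all came without obestatin replicate 1, where obestatin rests on its Cy5 sample. Adam3 in Nt8U against obestatin was -0.06 and turned to 4.18 there (leave-one-out range -4.29 to 4.18; limma adjusted p = 0.0212). For the other 3 comparisons no gene was called when any sample was left out.

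Without the 3 samples richest in germ cell markers and with no dye term, Nt8U against saline had 24 genes called, 2 of them ADAM genes (Adam28 and Adam7, limma adjusted p = 0.0435 and 0.0495), on 1 residual degree of freedom and a lone sample in 3 groups. The ADAM median for the N-terminal peptide against obestatin was -0.85 in that fit. The median difference of the sperm and testis members between replicates was 7.55, 7.13 and 6.90 in saline, the N-terminal peptide and Nt8U with the scanner's processed signals. With no loess it was -0.17 in obestatin, 6.70 in the N-terminal peptide and 5.75 in Nt8U. That of the somatic proteases was 0.82 in obestatin and 0.80 in Nt8U with no loess, against -0.32 and -0.60 as reported, and -1.27 in Nt8U in the authors' log2 values. The cause of these shifts was not tested. An array block could not be fitted, the annotation's gene names were the setting used, and no paired analysis was possible because the replicate numbers come from accession order and coincide with the dye, which the fit holds as a term.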
